A study of Mus musculus with 8 samples.

Results

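The 3157 insulin-led cells described here are mouse pancreatic β-cells from 4 of the 8 single-cell libraries of a study of islets exposed to inflammatory cytokines, and the comparison is between β-cells left untreated and β-cells given IL-1β + IFN-γ together with NMMA. They were chosen by their counts: a barcode had to hold 200 to 5500 genes in replicate 1 or 200 to 6500 in replicate 2, at most 10% mitochondrial unique molecular identifiers (UMIs, each 1 captured RNA molecule), at least 5000 UMIs, at least 10% of them from Ins1 and Ins2, and at least 95% of its hormone UMIs from these insulin genes. Of the 9639 deposited cells of these 4 libraries, 1622 and 536 untreated cells (replicates 1 and 2, the order of every pair of values below) and 621 and 378 cells given cytokines with NMMA met the rule. The whole series has 17426 deposited cells, of which 5940 are β-cells by the same rule, with 1540 given the cytokines alone and 1243 given NMMA alone.

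Intact islets of male C57BL/6 mice of 12 to 16 weeks were cultured in CMRL medium for 18 h and then dispersed for droplet capture with 3′ end counting. The 4 groups were untreated islets, islets with 10 U/mL human IL-1β and 150 U/mL mouse IFN-γ, islets with the same cytokines and 2 mM NMMA, and islets with 2 mM NMMA. Islets of 10 mice were pooled for each of 2 replicates before the pool was divided over the 4 groups, so a replicate is a pool and not an animal. No group carried a transgene or a deletion, the islets kept their own α-, δ-, endothelial and immune cells during the culture, and all 4 groups passed through the same isolation, culture and dispersion.

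IL-1β acts through its receptor, MyD88 and the IRAK kinases on NF-κB, and IFN-γ acts through JAK kinases to induce IRF1 and a wide set of interferon-stimulated genes. In mouse β-cells both signals together induce Nos2, the inducible nitric oxide synthase, and the nitric oxide it makes from arginine inhibits mitochondrial oxidation. NMMA is an arginine analog that blocks nitric oxide synthases. What differs between untreated cells and cells given cytokines with NMMA therefore holds the candidate nitric oxide-independent arm of the cytokine response. That arm is what the comparison was made to describe. The same difference also holds any effect of NMMA itself, so values against NMMA alone are given beside it for many genes. How far NMMA stopped nitric oxide synthesis in these islets was not measured in the files.

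Promoters of 6 induced genes are shown because each carries the letters of a known interferon response motif and all but Ifit1 also those of the NF-κB motif. The values of these genes recur below. Each window is 300 bases, 250 before and 50 after the annotated start, from RefSeq on GRCm38.p6, printed 5′ to 3′ on the gene's strand. Capitals mark TTCNNNGAA (the GAS motif), an ISRE core (GAAA, any 2 bases, GAAA) and an NF-κB motif (GG, then A or G, any 2 bases, C or T at 2 positions, CC), each searched on both strands, with overlapping matches run together. Irf1 (the first of its 2 windows, chr11:53769764-53770063, + strand), Gbp2 (chr3:142620413-142620712, +), Cxcl10 (chr5:92348840-92349139, −), Icam1 (chr9:21015690-21015989, +), Ifit1 (chr19:34640639-34640938, +) and B2m (chr2:122147437-122147736, +) read as follows.
Irf1: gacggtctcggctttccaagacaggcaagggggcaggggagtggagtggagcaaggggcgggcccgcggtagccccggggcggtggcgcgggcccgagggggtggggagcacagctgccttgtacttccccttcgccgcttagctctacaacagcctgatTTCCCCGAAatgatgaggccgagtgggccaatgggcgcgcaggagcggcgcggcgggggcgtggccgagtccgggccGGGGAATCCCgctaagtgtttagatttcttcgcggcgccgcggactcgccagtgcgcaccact
Gbp2: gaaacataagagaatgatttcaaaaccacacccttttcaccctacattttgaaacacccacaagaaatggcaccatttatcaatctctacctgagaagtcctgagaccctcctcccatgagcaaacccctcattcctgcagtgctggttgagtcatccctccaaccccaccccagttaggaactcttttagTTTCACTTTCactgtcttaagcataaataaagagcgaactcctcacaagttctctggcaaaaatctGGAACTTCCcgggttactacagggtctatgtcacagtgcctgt
Cxcl10: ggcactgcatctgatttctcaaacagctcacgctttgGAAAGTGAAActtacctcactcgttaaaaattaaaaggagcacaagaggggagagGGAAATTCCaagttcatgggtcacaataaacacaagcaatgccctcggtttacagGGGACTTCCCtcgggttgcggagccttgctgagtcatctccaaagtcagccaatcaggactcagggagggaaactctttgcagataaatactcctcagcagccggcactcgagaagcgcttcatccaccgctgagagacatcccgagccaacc
Icam1: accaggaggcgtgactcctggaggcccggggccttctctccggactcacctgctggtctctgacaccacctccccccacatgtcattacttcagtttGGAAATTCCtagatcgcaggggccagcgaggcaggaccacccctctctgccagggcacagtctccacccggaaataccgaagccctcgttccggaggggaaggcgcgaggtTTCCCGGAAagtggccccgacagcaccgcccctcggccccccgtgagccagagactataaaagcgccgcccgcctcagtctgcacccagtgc
Ifit1: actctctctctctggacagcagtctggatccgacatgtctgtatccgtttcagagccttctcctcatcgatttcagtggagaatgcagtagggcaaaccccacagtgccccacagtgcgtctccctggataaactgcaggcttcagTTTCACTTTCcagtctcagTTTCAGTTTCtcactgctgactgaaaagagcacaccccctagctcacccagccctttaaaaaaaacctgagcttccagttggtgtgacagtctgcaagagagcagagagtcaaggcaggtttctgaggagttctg
B2m: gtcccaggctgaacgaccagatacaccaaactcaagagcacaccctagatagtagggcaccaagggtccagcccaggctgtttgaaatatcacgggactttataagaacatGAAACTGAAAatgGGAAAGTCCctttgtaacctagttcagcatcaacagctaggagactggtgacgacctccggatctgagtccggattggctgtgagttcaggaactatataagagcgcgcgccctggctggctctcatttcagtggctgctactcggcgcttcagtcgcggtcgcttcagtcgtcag
Irf1, an activator of interferon-stimulated genes, held a GAS match at −90 to −82 and overlapping NF-κB matches from −13 to −4, counted from the start. Cxcl10, a chemokine for T cells, held an ISRE core at −213 to −204 and NF-κB matches starting at −158, −103 and −102. Gbp2, a guanylate binding protein, had an ISRE core at −59 to −50 and an NF-κB match at 8 to 16 after the start. Icam1, an adhesion molecule for leukocytes, combined a GAS match at −42 to −34 with an NF-κB match at −153 to −145. Ifit1, an antiviral RNA-binding protein, carried ISRE cores starting at −104 and −85, and B2m, the light chain of MHC class I, carried an ISRE core starting at −139 and an NF-κB match starting at −126. Over all 32851 promoter windows of the table the GAS motif was in 8.30%, the ISRE core in 3.44%, the NF-κB motif in 26.6% and at least 1 of them in 35.2%, so a match is a description of letters and not a binding site. The windows of Slc2a2, Ucn3, Cd274, Tap1 and Psmb9 and the other window of Irf1 held none of the 3 motifs. Pdx1, which fell, held NF-κB matches starting at −46 and −45, and Hspa1a, which was not called, held 1 starting at −132. Matches were thus neither present in all genes that rose nor confined to them. Nos2 and Mafa are named only.

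The β-cells of these libraries held 34665418 and 15133743 UMIs untreated and 18036031 and 10880911 UMIs with cytokines and NMMA, with medians of 20584 and 26708.5 against 28898 and 28187 UMIs per cell. The insulin genes took a median of 42.1% and 39.7% of a cell's UMIs untreated and 33.0% and 35.5% with cytokines and NMMA, which is given as a description since the rule used these genes. Just inside the 10% insulin limit (within 2 percentage points) lay 7 untreated and 3 treated cells, and just outside it 6 and 7. Just inside the 5000 UMI limit (within 500) lay 5 and 6, and just outside it 13 and 6. Just inside the 95% hormone limit (within 1 percentage point) lay 9 and 1, and just outside it 6 and 4. The limits on genes and mitochondrial UMIs removed more cells, and unequally. Without them 1864 and 629 untreated cells would have met the rule, against 1622 and 536 with them. For cytokines with NMMA it would have been 927 and 468 cells, against 621 and 378. No more than 1 β-cell barcode was shared between libraries of the same replicate. Further β-cell markers, which the rule did not name, were present in untreated cells: the transcription factor Mafa stood at 605 and 464 CPM (a gene's UMIs scaled to a common library total), the glucose transporter Slc2a2 at 131 and 87.2 CPM and the maturity hormone Ucn3 at 162 and 129 CPM. Markers of other cell types were low but not at 0 after summing. The macrophage markers summed to 73.4 and 79.6 CPM untreated and 186 and 90.5 CPM with cytokines and NMMA, where C1qa gave 161 and 63.0 CPM. Of 8 tested none was called higher and 1 lower, with a median log2 change of −2.40. Endothelial markers summed to 4.7 to 5.3 CPM and mesenchymal markers to 0.3 to 1.3 CPM over the 4 libraries, α-cell markers to 502 and 427 against 252 and 227 CPM, and δ-cell markers to 49.0 and 38.8 against 31.1 and 34.1 CPM. The acinar sum was 52.5 and 28.4 CPM in replicate 1 and 0.4 and 0.9 CPM in replicate 2. The ductal sum, which islet cells also contribute to, was 566 and 590 CPM untreated and 1226 and 991 CPM treated, with 4 of 8 tested members called higher. The part of these cells in any result below was not tested.

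In cytokines with NMMA against untreated, 1623 of 12701 genes tested were higher (12.8%) and 1220 were lower (9.61%), by edgeR's quasi-likelihood test on UMIs summed per library with Benjamini-Hochberg adjustment at 0.05. At least 2-fold changes numbered 921 higher and 579 lower, and at least 16-fold changes 178 higher and 6 lower, so the large changes were nearly all increases. The median log2 change of all genes tested was −0.00 with quartiles at −0.34 and 0.32, and every list below is read against this median and these 2 percentages. Of the called genes, 740 higher and 364 lower stayed called when any 1 of the 8 libraries was left out. The total was 2843 in the fit of 8 libraries, 1260 without untreated replicate 1, 1479 without the cytokines and NMMA library of replicate 1 and 1843 without that of replicate 2. It was 5020 with a replicate block, which takes up the islet pool and the version of the counting software together, as both differed by replicate. Against NMMA alone, the control that also holds the inhibitor, 1278 genes were higher (10.1%) and 905 lower (7.13%), and NMMA alone against untreated gave 0 calls by edgeR, 929 genes at an unadjusted p under 0.05, 346 calls with the replicate block and 13 by DESeq2.

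**Figure D1:**
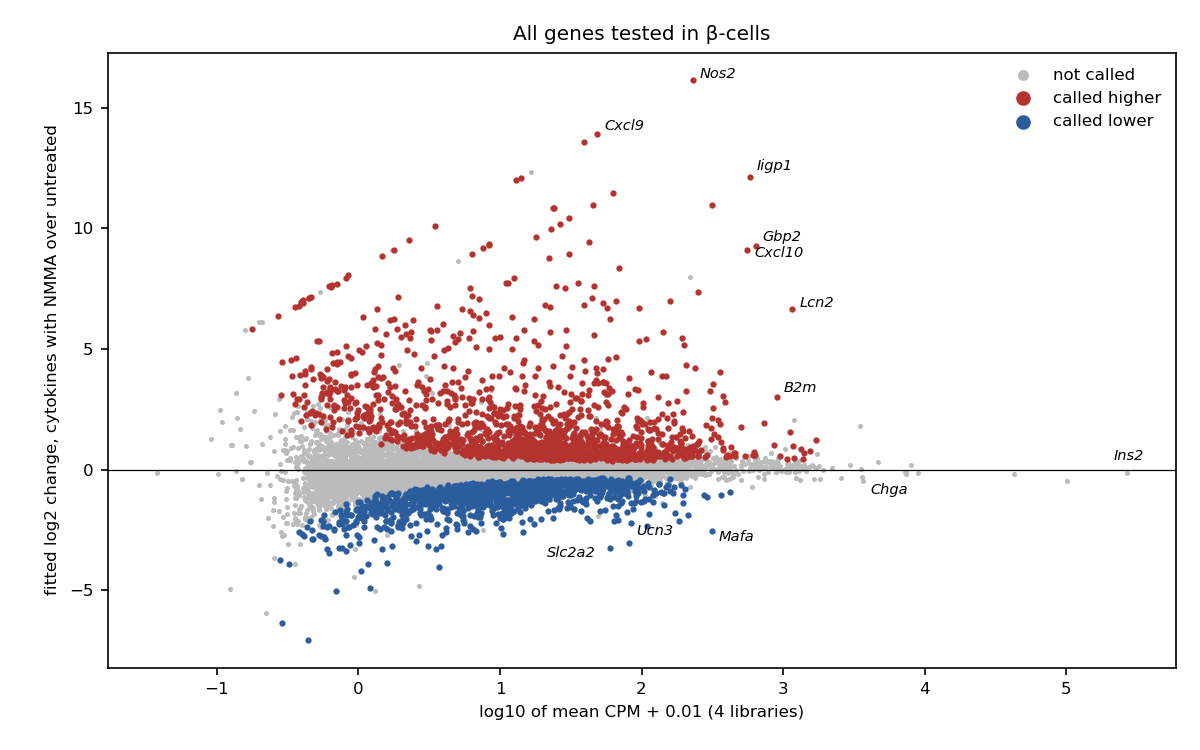
Each point is 1 of the 12701 genes tested in β-cells, with the mean CPM of the 4 libraries on a log10 axis and the fitted log2 change of cytokines with NMMA against untreated on the vertical axis; red points were called higher (1623) and blue points lower (1220). The increases reach far higher in size than the decreases, whose deepest named members are Slc2a2 at −3.26 and Ucn3 at −3.05.

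Nos2, the target of the inhibitor, was the gene with the largest fitted increase. It had 0 UMIs in the β-cells of both untreated libraries and reached 462 and 458 CPM with cytokines and NMMA, at least 7933-fold higher when 3 counts over the untreated group are taken as the floor (adjusted p = 2.5e-07). NMMA alone gave 0.05 and 0 CPM, and the cytokines without NMMA gave 192 and 166 CPM, so all treated libraries stood above all others. Nos2 was therefore higher with the inhibitor than without it (log2 difference 1.36 ± 0.18 SE, adjusted p = 0.0039).

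Of 14 tested genes of nitric oxide synthesis and arginine supply, 3 rose, 3 fell and 8 were not called (median 0.25). Slc7a1, a cationic amino acid transporter that imports arginine, rose from 18.8 and 21.2 to 35.1 and 32.6 CPM (log2 change 0.76 ± 0.12). Its family member Slc7a2 went the other way, from 74.6 and 63.9 to 27.4 and 29.2 CPM (−1.29 ± 0.13), and Qdpr, which regenerates the synthase cofactor tetrahydrobiopterin, fell from 100.1 and 85.0 to 54.5 and 51.0 CPM (−0.81 ± 0.14). Against untreated cells the transporters thus moved in opposite directions. Against NMMA alone Slc7a2 and Qdpr were also lower (adjusted p = 0.00093 and 0.0059), whereas Slc7a1 was not called (0.35) and stood at 29.5 and 30.1 CPM with NMMA alone.

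Receptors and adaptors of both cytokines mostly rose: 8 of 15 tested were higher, 1 lower and 6 not called, with a median of 0.96. Ifngr2, the signalling chain of the IFN-γ receptor, rose from 4.88 and 4.56 to 36.4 and 32.1 CPM (2.86 ± 0.23), and its kinase Jak2 from 13.4 and 14.8 to 35.1 and 41.4 CPM (1.44 ± 0.13). On the IL-1 side Irak2 went from 1.96 and 1.94 to 9.82 and 9.07 CPM (2.27 ± 0.18) and Myd88 from 7.23 and 6.06 to 21.2 and 17.1 CPM (1.52 ± 0.21). The IL-1 receptor itself, Il1r1, was the 1 member to fall, from 223.5 and 193 to 101 and 122 CPM (−0.90 ± 0.16, adjusted p = 0.0041), and it was also lower than with NMMA alone (−0.61, 0.03). Without untreated replicate 1, 5 of the 15 were called higher.

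The STAT, IRF and SOCS list had 15 of 21 tested members higher and 3 lower (median 1.50). Irf1 rose from 19.2 and 19.3 to 291 and 270 CPM (3.86 ± 0.14). Brakes of the pathway rose as well: Socs1, an inhibitor of JAK kinases, went from 0.95 and 0.75 to 117 and 94.0 CPM (6.91 ± 0.24), and Usp18, which limits interferon receptor signalling, from 7.23 and 8.30 to 62.9 and 57.3 CPM (2.96 ± 0.17). Batf2 had 1 UMI in untreated β-cells and 13.6 and 19.7 CPM with treatment, a ratio of counts of 821. Stat3 rose less, from 144 and 152 to 263 and 262 CPM (0.83 ± 0.15). Socs2, a feedback inhibitor of growth hormone and prolactin signalling, fell from 19.6 and 17.5 to 5.13 and 5.42 CPM (−1.82 ± 0.15), and of the 3 lower members it was the 1 that stayed called in every fit with a library left out, since Stat5a and Stat5b did not. With NMMA alone Irf1 stood at 20.5 and 19.3 CPM and Socs1 at 0.25 and 0.50 CPM.

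NF-κB genes rose as a whole list, with 22 of 22 tested members higher, 0 lower and a median of 2.16. Zc3h12a, an RNase that degrades inflammatory mRNA, had the smallest adjusted p and rose from 0.42 and 0.50 to 36.3 and 32.4 CPM (6.24 ± 0.28). Feedback inhibitors were among the clearest: Tnfaip3 went from 1.20 and 1.37 to 28.5 and 26.8 CPM (4.43 ± 0.22) and Nfkbia (IκBα) from 44.2 and 35.6 to 285 and 248 CPM (2.74 ± 0.26). Sod2, the mitochondrial superoxide dismutase, rose from 99.6 and 92.3 to 810 and 542 CPM (2.82 ± 0.22). Birc3, an inhibitor of apoptosis, rose from 4.26 and 4.62 to 87.8 and 62.5 CPM (4.09 ± 0.28). Icam1 went from 0.22 and 0.87 to 110 and 72.6 CPM (7.61 ± 0.52). Against NMMA alone 20 of the 22 were higher, and with 1 library left out 16 to 22 were higher than untreated.

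Interferon-induced GTPases, which attack the vacuoles of intracellular pathogens, showed the largest list median. Of 19 tested, 18 rose and 0 fell, with a median log2 change of 9.28, and the same number rose against NMMA alone. Gbp2 went from 1.63 and 2.56 to 1295 and 1254 CPM (9.28 ± 0.34), Iigp1 from 0.22 and 0.31 to 961 and 1370 CPM (12.12 ± 0.33) and Gbp4 from 0.17 and 0.56 to 689 and 570 CPM (10.96 ± 0.49). The immunity-related GTPase Irgm1 started higher, at 11.1 and 10.2 CPM, and reached 415 and 361 CPM (5.18 ± 0.18). Gm4841 had 0 untreated UMIs and was at least 1297-fold higher, and Tgtp2 at least 443-fold. F830016B08Rik, with 1 untreated UMI, had a count ratio of 3203 (95% counting interval 886 to 26461). Many of these genes are near-identical copies of one another, as are the H2-Q, Oas and Ifit3 genes, so how reads were divided within these families is uncertain.

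Antiviral interferon-stimulated genes rose in 38 of 39 cases, with 0 lower and a median of 3.36. Ifit2, which binds foreign RNA, rose from 0.39 and 0.31 to 39.7 and 43.1 CPM (6.80 ± 0.21), and Parp14, an ADP-ribosyltransferase, from 11.9 and 14.5 to 211 and 226 CPM (4.06 ± 0.17). Ifit1 rose from 9.30 and 12.4 to 142 and 161 CPM (3.81 ± 0.48). Isg20, an RNA exonuclease with a higher level in untreated cells, went from 140 and 130 to 585 and 523 CPM (2.03 ± 0.15). With NMMA alone Ifit2 stood at 0.15 and 0.25 CPM and Parp14 at 12.6 and 13.7 CPM, and 38 of 39 were higher than with NMMA alone as well.

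MHC class I presentation had 22 of 25 tested genes higher and 0 lower (median 2.74). The peptide transporter gene Tap1 rose from 5.04 and 4.87 to 229 and 194 CPM (5.41 ± 0.20), the immunoproteasome subunits Psmb8 from 39.1 and 43.2 to 769 and 588 CPM (4.05 ± 0.22) and Psmb9 from 17.6 and 18.2 to 294 and 224 CPM (3.86 ± 0.22). Nlrc5, the class I transactivator, went from 0.45 and 0.37 to 21.2 and 17.7 CPM (5.51 ± 0.32). The chains that reach the surface started from higher levels and changed by smaller factors: B2m rose from 195 and 207 to 1832 and 1386 CPM (3.0 ± 0.24) and the heavy chain H2-K1 from 624 and 510 to 1946 and 1364 CPM (1.54 ± 0.27).

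MHC class II genes reached lower levels. Ciita, the class II transactivator, rose from 0 and 0.06 to 2.37 and 1.87 CPM (6.34 ± 0.79), and 5 of 8 tested class II genes were called higher, 0 lower (median 3.06). The class II chain H2-Ab1 went from 0.81 and 2.12 to 12.7 and 8.36 CPM (2.95 ± 0.57), and it lost the call without untreated replicate 1 or the cytokines and NMMA library of replicate 1 (adjusted p 0.053 and 0.062). The invariant chain Cd74 went from 2.89 and 8.86 to 139 and 63.4 CPM (4.16 ± 0.93, adjusted p = 0.041) and was not called in any of the 8 fits with 1 library left out (0.053 to 0.17). It had a UMI in 46.4% and 30.7% of treated β-cells. Leaving out untreated replicate 1 or the cytokines and NMMA library of replicate 1 left 1 class II gene called, and leaving out untreated replicate 2 left 3. Macrophages carry these genes at high levels. Of the macrophage markers, C1qa was at 161 and 63.0 CPM in the treated libraries, and Lyz2, C1qb and C1qc were below 1 CPM in both. All macrophage markers together summed to 73.4 and 79.6 CPM untreated and 186 and 90.5 CPM treated, and C1qa made up most of the treated sums. Of the 8 macrophage markers tested 0 were called higher and 1 lower, with a median log2 change of −2.40. The part of macrophage RNA in the class II values was not tested.

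Among chemokines and cytokine ligands, 13 of 19 tested rose and 0 fell (median 4.56). Cxcl10 went from 2.33 and 1.69 to 1625 and 605 CPM (9.09 ± 0.95), and the 10 cells richest in it held 17.2% and 29.7% of its UMIs in the treated libraries. Tnfsf10 (TRAIL) rose from 2.86 and 3.68 to 80.4 and 69.1 CPM (4.53 ± 0.25) and Il1b, the gene of 1 of the cytokines given, from 6.84 and 9.05 to 91.4 and 62.5 CPM (3.29 ± 0.24). Ccl2, an attractant of monocytes, went from 0.06 and 0.25 to 84.4 and 38.3 CPM (8.92 ± 0.78), and Cxcl1, an attractant of neutrophils, from 0 and 0.19 to 11.9 and 12.5 CPM with a count ratio of 209 (70.9 to 1018). Cxcl9 was at 0 UMIs untreated and at 150 and 45.6 CPM with treatment, at least 1901-fold higher, but 70.3% and 63.5% of its UMIs came from 10 cells, and it lost the call without either untreated library or either library of the cytokines alone (adjusted p 0.093 to 0.18). Other deposited cells of the same libraries, those that are not β-cells, held 1427 and 2275 CPM of Cxcl9. The part of RNA from such cells in these values was not tested.

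Checkpoint and lymphocyte-restraining genes rose without exception, 11 of 11 tested (median 5.72), also against NMMA alone. The list is mixed, as it also holds a death receptor, and the 11 are not a count of restraining genes alone. Cd274 (PD-L1) went from 4.26 and 6.43 to 272 and 285 CPM (5.72 ± 0.23), the death receptor Fas from 0.17 and 0.19 to 16.7 and 11.4 CPM (6.29 ± 0.40) and Il18bp, a decoy for IL-18, from 29.9 and 28.2 to 274 and 188 CPM (2.99 ± 0.25). Cd47, a signal against engulfment with a substantial untreated level of 162 and 187 CPM, rose to 504 and 453 CPM (1.46 ± 0.15).

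Of 20 acute-phase, complement and secreted defence genes tested, 14 rose and 1 fell (median 5.99). Lcn2, which sequesters bacterial siderophores, rose from 34.7 and 11.2 to 2672 and 1932 CPM (6.64 ± 0.67), and Steap4, a metalloreductase, from 0.67 and 0.56 to 98.9 and 77.6 CPM (7.11 ± 0.29). The antimicrobial peptide gene Defb1 went from 21.5 and 26.9 to 521 and 382 CPM (4.22 ± 0.23) and complement C3 from 4.34 and 4.56 to 56.0 and 38.5 CPM (3.41 ± 0.23). Cd59a, which shields cells from the complement pore, fell from 4.85 and 4.74 to 2.37 and 2.22 CPM (−1.06 ± 0.20). Saa3 and S100a9 came from few cells, with a UMI in 4.8% and 2.9% and in 5.3% and 6.3% of treated β-cells. S100a9 lost its call in 5 of 21 alternatives. These were a fit of only the libraries compared (adjusted p = 0.099) and the fits without either untreated library or either library of the cytokines alone (log2 change 11.8 to 12.1).

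**Figure D2:**
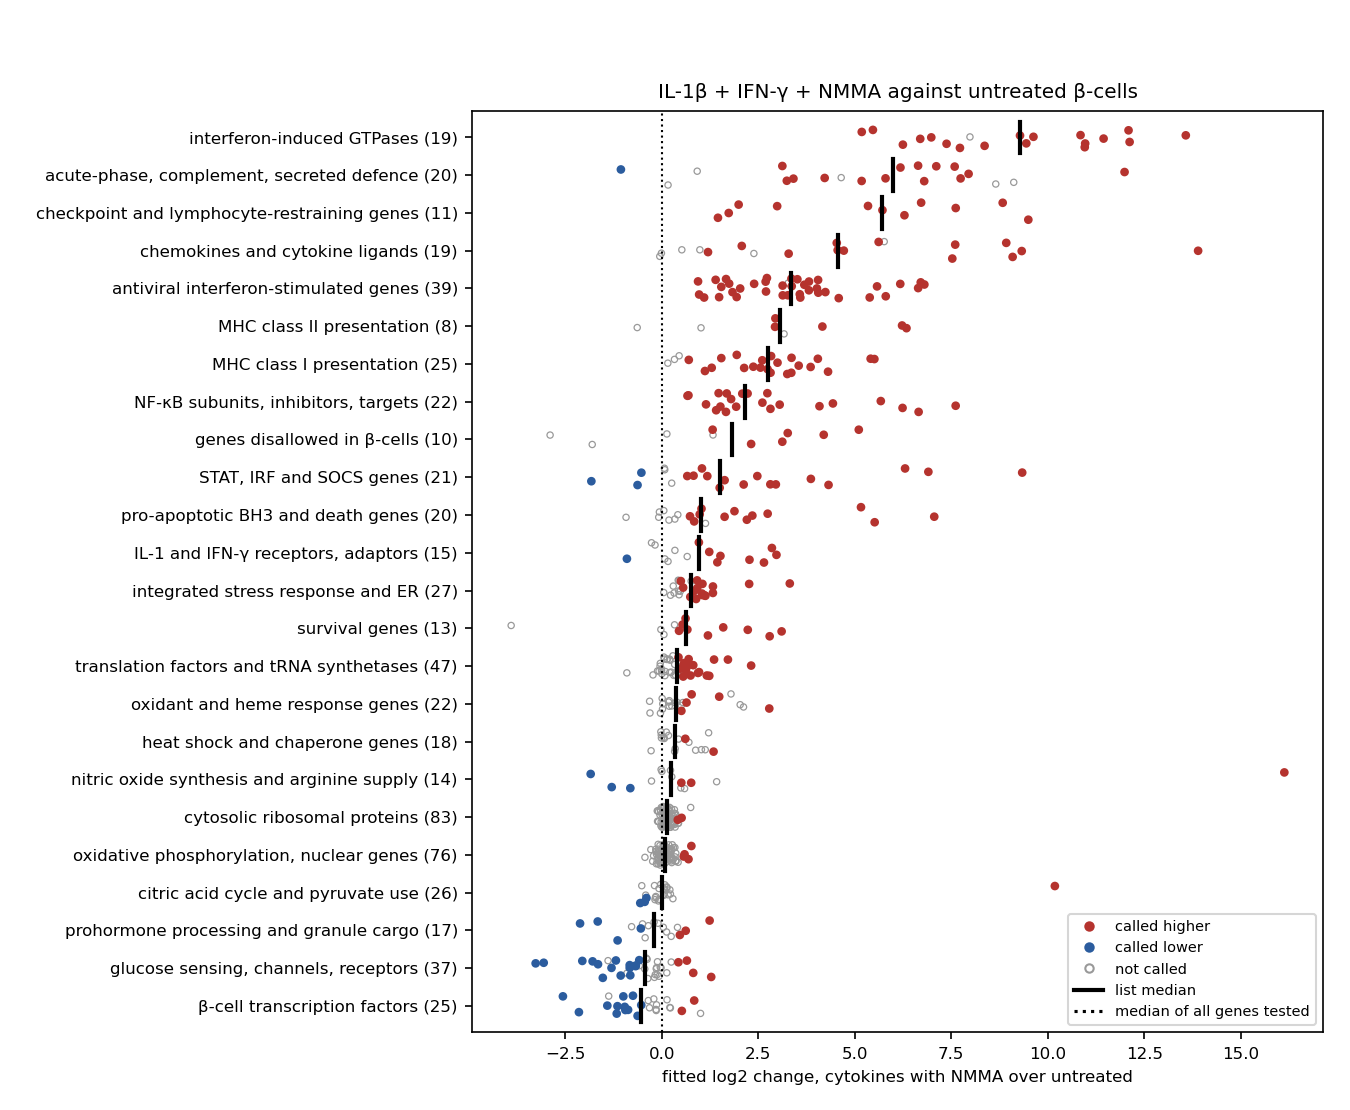
Fitted log2 changes of cytokines with NMMA against untreated for the tested members of 24 gene lists, ordered by the list median (black bar); red points were called higher, blue points lower and open points not called, and the dotted line is the median of all genes tested (−0.00). Interferon-induced GTPases stand at the top with a median of 9.28, and β-cell transcription factors (−0.53), glucose sensing genes (−0.44) and prohormone processing genes (−0.20) lie below the dotted line.

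β-cell transcription factors moved the other way: 12 of 25 tested fell, 2 rose and 11 were not called, with a median of −0.53, and 12 fell with 0 higher against NMMA alone. Mafa, an activator of the insulin gene in mature cells, fell from 605 and 464 to 77.2 and 105 CPM (−2.56 ± 0.21, adjusted p = 4.7e-05). NMMA alone stood between at 289 and 241 CPM, and the treated cells were also below it (−1.55, adjusted p = 0.00093). Pdx1, which maintains β-cell identity, fell from 128 and 116 to 46.0 and 46.2 CPM (−1.41 ± 0.16). Nkx6-1 fell from 210 and 166 to 98.1 and 91.2 CPM (−0.99 ± 0.16), Nkx2-2 from 78.0 and 84.5 to 43.0 and 46.0 CPM (−0.87 ± 0.14) and Myt1 from 20.1 and 20.5 to 9.17 and 8.89 CPM (−1.16 ± 0.14). Mlxipl, the glucose-responsive factor ChREBP, went from 129 and 79.2 to 27.4 and 19.7 CPM (−2.14 ± 0.39) and lost its call without either cytokines and NMMA library (adjusted p 0.060 and 0.080). Insm1, an endocrine differentiation factor, rose from 121 and 136 to 248 and 211 CPM (0.84 ± 0.14). Pax6 differed by −0.31 ± 0.16 (adjusted p = 0.20), and with the replicate block it was called lower (0.010, against 0.010 to 0.65 over its alternatives). The count of lower factors was 7, 6 and 7 without untreated replicate 1 and the cytokines and NMMA libraries of replicates 1 and 2.

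Genes of glucose sensing and insulin secretion fell in 15 of 37 cases, with 4 higher (median −0.44), and in 13 cases with 1 higher against NMMA alone. The 4 higher were 2 under total UMI scaling, 1 without the replicate 1 library of either group compared and 2 without that of replicate 2. Slc2a2 had the largest fitted decrease of all genes meeting the naming rule, from 131 and 87.2 to 9.98 and 12.9 CPM (−3.26 ± 0.23), followed by Ucn3, from 162 and 129 to 15.4 and 19.7 CPM (−3.05 ± 0.19). NMMA alone stood at 69.8 and 55.3 CPM for Slc2a2 and 128 and 101 CPM for Ucn3, above both treated libraries. Prlr, the prolactin receptor, fell from 135 and 126 to 49.1 and 56.7 CPM (−1.30 ± 0.14), the calcium-activated channel Trpm5 from 100.4 and 86.2 to 27.5 and 37.5 CPM (−1.52 ± 0.17), the granule protein Sytl4 from 125 and 140 to 35.9 and 48.9 CPM (−1.65 ± 0.19) and Rab3a, a vesicle GTPase, from 84.4 and 74.3 to 36.6 and 33.2 CPM (−1.19 ± 0.13). Stx1a, a membrane fusion protein, was among the 4 that rose, from 2.86 and 3.37 to 8.42 and 6.58 CPM (1.28 ± 0.22). G6pc2, the islet glucose-6-phosphatase, stood at 288 and 311 CPM untreated and 291 and 365 CPM treated.

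Other large decreases lay outside these lists. Ddc, which makes dopamine and serotonin from their precursors, fell from 204 and 162 to 35.9 and 35.7 CPM (−2.36 ± 0.21), the potassium channel Kcnk16 from 81.8 and 58.1 to 16.3 and 15.7 CPM (−2.13 ± 0.18) and Ttc28 from 144 and 131 to 30.4 and 29.3 CPM (−2.20 ± 0.14). Gatm, an enzyme of creatine synthesis that uses arginine, went from 25.8 and 31.3 to 5.02 and 7.20 CPM (−2.24 ± 0.22), and Hs3st6 (−2.61), Mapk15 (−2.18) and Mrln (−2.08) were among the 12 largest decreases. All of these were also lower than with NMMA alone.

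Prohormone processing and granule cargo did not move in 1 direction, with 3 of 17 tested higher and 4 lower (median −0.20). Chgb, a granin of the secretory granule, rose from 894 and 1119 to 2222 and 2540 CPM (1.24 ± 0.16), while Ero1lb, an oxidase for disulfide bonds in proinsulin, fell from 412 and 384 to 169 and 192 CPM (−1.14 ± 0.13). With the replicate block 5 were higher and 9 lower. As a description, Ins1 stood at 122920 and 110810 CPM untreated and 81459 and 87873 CPM treated.

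**Figure D3:**
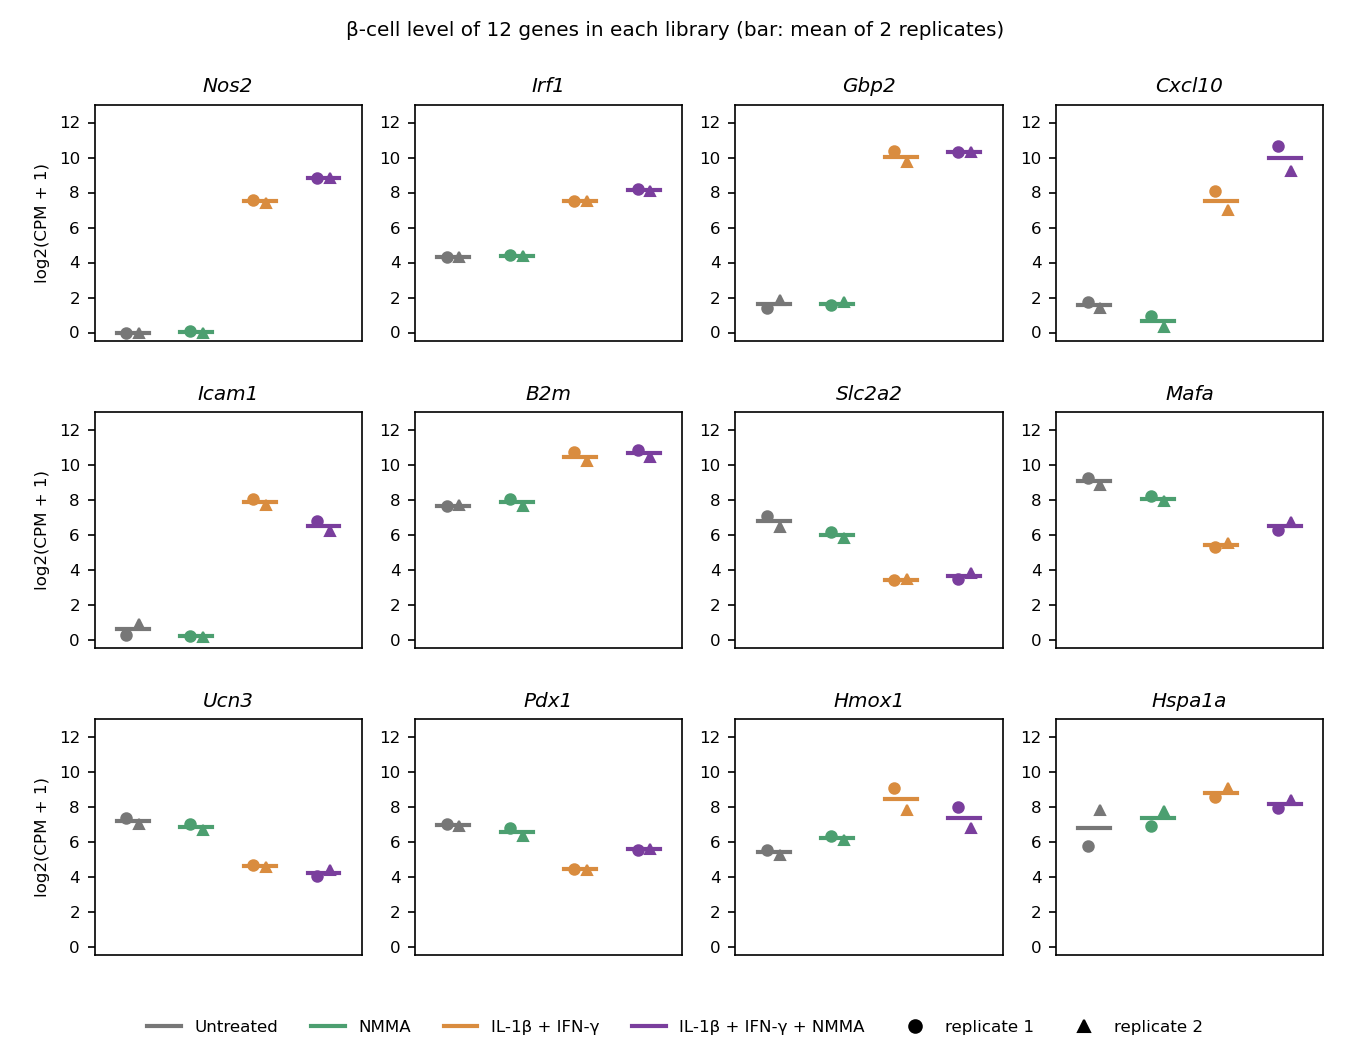
Levels of 12 genes in β-cells of all 8 libraries as log2(CPM + 1), with a circle for replicate 1, a triangle for replicate 2 and a bar at the mean of both log2 values in each of the 4 groups. Nos2, Irf1, Gbp2, Cxcl10, Icam1 and B2m are high in both groups with cytokines, Slc2a2 and Ucn3 are low in both, and with cytokines and NMMA Mafa and Pdx1 lie above the cytokines alone and below untreated.

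Of 18 heat shock and chaperone genes tested, 2 rose and 0 fell (median 0.34). Bag3, a cochaperone of Hsp70, rose from 15.9 and 25.9 to 49.4 and 56.1 CPM (1.34 ± 0.26). Hsp90aa1 went from 399 and 573 to 753 and 733 CPM (0.61 ± 0.19, adjusted p = 0.045), and this call was lost with the replicate block (0.055) and without untreated replicate 1 (0.29), the range over its alternatives being 0.0072 to 0.29. The inducible Hsp70 gene Hspa1a stood at 53.1 and 226 CPM untreated and 241 and 328 CPM treated (1.03 ± 0.76, adjusted p = 0.42), and its untreated replicates differed by more than its treated ones. Without untreated replicate 2 it was called higher (2.39, 0.013), and over its alternatives the adjusted p ran from 1.77e-06, without the filter on low counts, to 0.69. The replicate block gave 4 higher members, and leaving out untreated replicate 2 gave 7.

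The integrated stress response and endoplasmic reticulum list had 16 of 27 higher and 0 lower (median 0.76), and 5 were higher than with NMMA alone. Atf3 rose from 0.87 and 2.25 to 15.2 and 13.6 CPM (3.32 ± 0.37), Trib3, a target of ATF4, from 9.89 and 16.2 to 78.7 and 45.3 CPM (2.27 ± 0.35) and Ppp1r15a, which restores translation by dephosphorylating eIF2α, from 17.7 and 19.2 to 50.2 and 42.2 CPM (1.33 ± 0.14). The chaperone Hspa5 (BiP) went from 884 and 1042 to 1776 and 1685 CPM (0.85 ± 0.15), but it was at 1483 and 1272 CPM with NMMA alone, against which it was not called (0.33, adjusted p = 0.16). Without untreated replicate 1, or without the cytokines and NMMA library of replicate 1, 8 members were called.

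Oxidant and heme response genes rose in 5 of 22 cases (median 0.37, 0 lower). Gpx1, a glutathione peroxidase, rose from 66.0 and 81.4 to 213 and 201 CPM (1.49 ± 0.15), the cystine transporter Slc7a11 from 1.99 and 2.37 to 17.6 and 12.1 CPM (2.79 ± 0.39) and ferritin heavy chain Fth1 from 1189 and 1080 to 2074 and 1812 CPM (0.78 ± 0.13). Hmox1, heme oxygenase 1, went from 45.3 and 36.8 to 249 and 108 CPM, which did not pass the test (2.12 ± 0.57, adjusted p = 0.052). With the replicate block it was called (0.029), and over its alternatives the adjusted p ran from 2.99e-25, without the filter on low counts, to 0.22. The block called 11 members of this list higher and 1 lower, and 3 were higher without untreated replicate 1 or without the cytokines and NMMA library of replicate 1.

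Translation factors and tRNA synthetases had 19 of 47 tested members higher and 0 lower (median 0.41), against 9 higher than with NMMA alone. Wars, the tryptophan synthetase known to respond to IFN-γ, rose from 54.5 and 56.3 to 277 and 275 CPM (2.32 ± 0.23). Eif4ebp1, a repressor of cap-dependent translation, rose from 41.4 and 46.0 to 170 and 117 CPM (1.72 ± 0.21) and Rars from 27.2 and 30.5 to 67.2 and 62.3 CPM (1.17 ± 0.13). The replicate block raised the count to 29 higher and 1 lower, and it was 8 without untreated replicate 1 and 10 without the cytokines and NMMA library of replicate 1. Lists of ribosomal protein and oxidative phosphorylation genes were added after the data were seen. Of 83 cytosolic ribosomal protein genes 2 were higher (median 0.13, 23 with the block), and of 76 nuclear genes of oxidative phosphorylation 4 were (0.08, 19 with the block). Without untreated replicate 1 none of these 6 was called.

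Death and survival genes rose together. Of 20 pro-apoptotic BH3 and death genes 12 were higher and 0 lower (median 1.01), and of 13 survival genes 9 were higher and 0 lower (median 0.62, 5 higher without untreated replicate 1). Mlkl, the effector of necroptosis, rose from 0.95 and 1.06 to 39.4 and 32.2 CPM (5.16 ± 0.26) and Casp4 from 0.06 and 0.19 to 17.6 and 10.4 CPM (7.06 ± 0.59). Neither is a BH3 gene, and the 12 are a count for the mixed list and not for BH3 genes alone. The BH3 genes Pmaip1 and Hrk had at most 3 UMIs in any library and were not tested. On the protective side Ier3 rose from 8.60 and 7.12 to 64.3 and 45.5 CPM (2.80 ± 0.21), Tnfaip8 from 16.4 and 13.9 to 70.9 and 71.9 CPM (2.23 ± 0.13) and Bcl2l1 (Bcl-xL) from 13.8 and 16.7 to 36.6 and 33.2 CPM (1.20 ± 0.19). These are RNA levels and not measurements of cell death.

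Genes disallowed in β-cells, which mature β-cells keep low, were higher in 6 of 10 cases (median 1.82, 0 lower), but 3 were higher than with NMMA alone and 2 without untreated replicate 1. Tgm2 rose from 0.42 and 0.56 to 9.01 and 8.63 CPM (4.20 ± 0.34). Ldha, lactate dehydrogenase A, went from 4.62 and 8.61 to 55.6 and 57.4 CPM (3.12 ± 0.66, adjusted p = 0.030), stood at 8.20 and 20.5 CPM with NMMA alone, and was not called without any 1 of the 4 compared libraries (0.085 to 0.17). Of 26 genes of the citric acid cycle and pyruvate use 1 rose and 3 fell (median 0.02, 2 higher and 5 lower with the replicate block), and leaving out any of the 4 compared libraries left 0 lower. The riser was Acod1, which makes itaconate from the cycle, with 0.03 and 0.06 CPM untreated and 45.5 and 59.9 CPM treated (10.18 ± 0.51).

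To compare shares of single cells with a UMI, each cell was thinned to 5000 UMIs, and intervals are exact Clopper-Pearson intervals at 95% that cover counting error only. Nos2 had a UMI in 55.2% (51.2 to 59.2%) and 48.4% (43.3 to 53.6%) of β-cells with cytokines and NMMA, in 37.2% and 34.0% with the cytokines alone, and in 0 of 1622 and 0 of 536 untreated cells, which allows shares of cells with a UMI of up to 0.227% and 0.686% and does not limit the share of cells expressing the gene below detection. Gbp2 had a UMI in 88.9% and 80.4% against 0.493% and 1.68% untreated, and B2m in 96.3% and 90.7% against 52.3% and 50.4%. Cxcl10 was seen in 56.0% and 42.6% against 0.617% and 0.560%, and Cd274 in 67.3% and 58.7% against 2.16% and 3.54%. Icam1 was seen in 26.4% and 20.4% against 0.123% and 0.187%. Unlike Nos2, it was seen in more cells with the cytokines alone, 42.9% and 38.4%. The share of cells with a Mafa UMI was 78.4% and 65.7% untreated and 25.1% and 31.2% treated. Slc2a2 went from 43.3% and 29.7% to 4.83% and 9.52%. Cells led by glucagon, which should lack Mafa, Slc2a2 and Ucn3, had a UMI of these genes in 0 to 4.29% of cells (31 to 70 cells per library, medians of 11761 to 18398 UMIs before thinning), below the share of the same gene in β-cells of the same library. No cell type that should lack the induced genes was at hand in the treated libraries, where the glucagon-led cells had a Nos2 UMI in 26.2% and 27.5% and a Gbp2 UMI in 81.5% and 90% of cells, so the part of free RNA in the shares of induced genes was not tested. With 2 libraries against 2, an exact permutation test on shares cannot go below 1 in 3, so no test is given.

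Counting how many of Nos2, Irf1, Gbp2, Cxcl10, Icam1 and Cd274 had a UMI in each thinned cell, 87.8% and 84.5% of untreated β-cells had none of the 6, against 3.70% and 7.67% with cytokines and NMMA. No untreated cell had 3 or more. All 6 were seen in 11.6% (9.18 to 14.4%) and 4.23% (2.44 to 6.78%) of cells with cytokines and NMMA and in 3.40% and 2.65% with the cytokines alone.

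**Figure D4:**
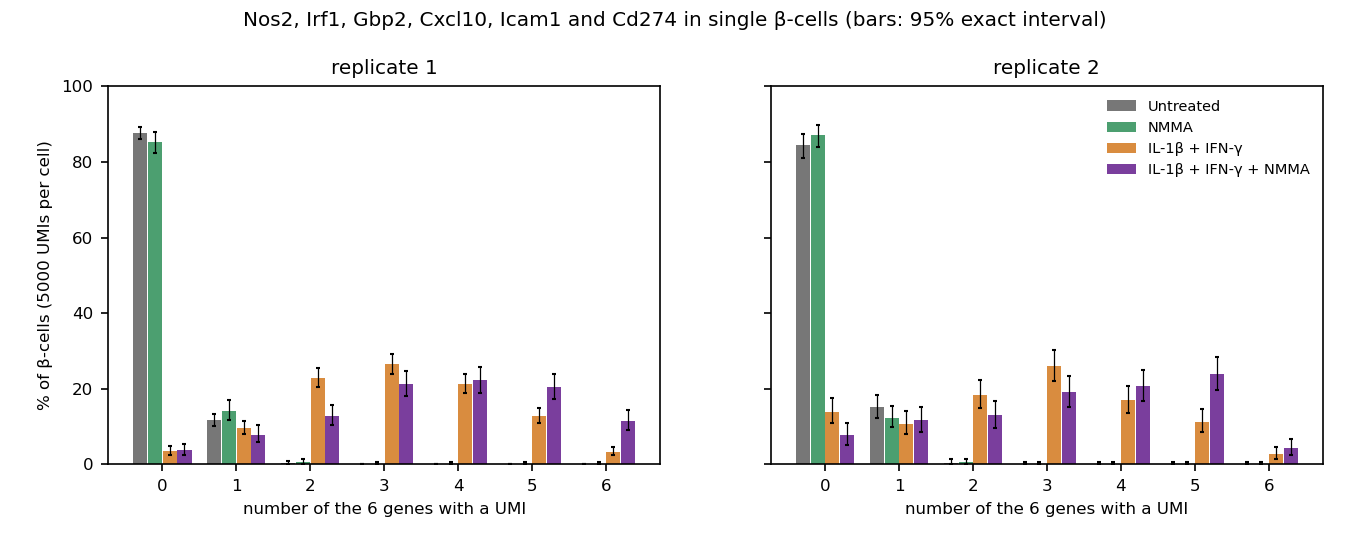
Percent of β-cells by the number of 6 induced genes (Nos2, Irf1, Gbp2, Cxcl10, Icam1, Cd274) with at least 1 UMI after thinning to 5000 UMIs per cell, 1 panel per replicate, with exact 95% intervals. Untreated cells pile up at 0 genes (87.8% and 84.5%), and cells given cytokines with NMMA spread over all counts, with 20.5% and 23.8% at 5 genes.

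To see which parts of the response differed with the inhibitor, cytokines with NMMA were compared with the cytokines alone, a comparison that shares its treated libraries with the one above. Here 1307 genes were higher (10.3%) and 1127 lower (8.87%) of 12701. Scaling by total UMIs instead of TMM moved the median log2 difference of all genes from 0.01 to 0.22 and the split to 2301 higher and 390 lower, so directions of small differences depend on the scaling. Interferon-induced GTPases were higher with the inhibitor in 11 of 19 cases and lower in 0 (median 1.06), and antiviral genes in 14 of 39 and 0 (0.42). Leaving out the cytokines library of replicate 1, the cytokines library of replicate 2 or either cytokines and NMMA library left 5 or 6 antiviral genes called. Iigp1 was higher by 2.04 on the log2 scale (250 and 317 CPM with cytokines alone, 961 and 1370 with NMMA, adjusted p = 0.0015), Socs1 by 1.59 (37.4 and 32.8, against 117 and 94.0 CPM) and Steap4 by 2.43 (16.6 and 16.1, against 98.9 and 77.6 CPM).

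β-cell transcription factors were higher with the inhibitor in 14 of 25 cases and lower in 1 (median 0.67), and glucose sensing genes in 12 of 37 and 1 (0.46). With total UMI scaling these counts were 18 and 0 for both lists, with the replicate block 20 and 3 for glucose sensing genes, and 5 factors were called higher without the cytokines library of replicate 1 and 7 without the cytokines and NMMA library of replicate 2. Pdx1 stood at 20.8 and 20.1 CPM with the cytokines and 46.0 and 46.2 CPM with NMMA added (1.17, adjusted p = 0.0033), Pax6 at 65.8 and 82.3 against 143 and 176 CPM (1.11, 0.0041) and Mafa at 37.9 and 44.3 against 77.2 and 105 CPM (1.14, 0.0077). Mafa was not called without the cytokines library of replicate 1 (1.04, adjusted p = 0.065, against 9.27e-08 to 0.065 over its alternatives). These 3 genes were above the level with cytokines alone, and Mafa and Pdx1 at the same time below the untreated level. For Slc2a2 (9.60 and 9.96 CPM) and Ucn3 (24.8 and 22.8 CPM) the difference was not called (0.22 ± 0.23 for Slc2a2 and −0.44 ± 0.18 for Ucn3). With the replicate block Ucn3 was called lower (−0.45, adjusted p = 0.031, against 0.031 to 0.46 over its alternatives). G6pc2 stood at 82.7 and 86.8 CPM with the cytokines and 291 and 365 CPM with NMMA added, beside 288 and 311 CPM in untreated cells (1.95, adjusted p = 0.0011). Pde10a, a cyclic nucleotide phosphodiesterase, was at 16.1 and 16.8 CPM with the cytokines and 74.0 and 73.3 CPM with NMMA added (2.17, 0.00028), beside 63.5 and 71.5 CPM untreated.

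Some members of the response were lower with the inhibitor. Heat shock genes were lower in 8 of 18 cases and higher in 0 (median −0.71), with 5 lower under total UMI scaling, 4 without the replicate 1 library of either group compared and 2 without the cytokines and NMMA library of replicate 2. Hspe1, the mitochondrial cochaperonin, was at 542 and 577 CPM with the cytokines and 270 and 263 CPM with NMMA added (−1.07, adjusted p = 0.0039), and Hsp90aa1 at 1982 and 1582 against 753 and 733 CPM (−1.26, 0.0044). Oxidant response genes were lower in 6 of 22 (−0.51, 1 higher and 3 lower under total UMI scaling), in 12 with the replicate block, and in 0 without the cytokines library of replicate 1 or the cytokines and NMMA library of replicate 2 and 2 without that of replicate 1. Ribosomal protein genes were lower in 47 of 83 (−0.54), and this was 7 under total UMI scaling (−0.33), 79 with the replicate block, 3 and 16 without the cytokines libraries and 5 and 1 without the cytokines and NMMA libraries of replicates 1 and 2. Among chemokines 2 were higher and 5 lower: Ccl2 was at 620 and 349 CPM with the cytokines and 84.4 and 38.3 CPM with NMMA added (−2.98, adjusted p = 0.015), and Cxcl1 at 58.5 and 45.6 against 11.9 and 12.5 CPM (−2.10, 0.010). Without the cytokines library of replicate 1 neither was called (adjusted p 0.071 and 0.077), and Cxcl1 was also not called without either cytokines and NMMA library (0.095 and 0.082). Without the limits on genes and mitochondrial UMIs per cell both calls were also lost, with Ccl2 at −2.22 (0.082) and Cxcl1 at −0.79 (0.16), the highest adjusted p over the alternatives of each. Cd40, a costimulatory receptor, was at 120 and 110 CPM with the cytokines and 53.5 and 35.3 CPM with NMMA added (−1.37, 0.0047). NF-κB genes were split, with 2 higher and 4 lower (median 0.03, 5 and 0 under total UMI scaling), and MHC class I genes had 2 higher and 1 lower of 25 (0.16), 6 and 1 under total UMI scaling (0.37) and 7 and 1 with the replicate block. Translation factors and tRNA synthetases had 3 higher and 14 lower of 47 (−0.31), with 4 and 4 under total UMI scaling. Pro-apoptotic BH3 and death genes had 7 higher and 2 lower of 20 (0.31), with 8 and 1 under total UMI scaling.

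**Figure D5:**
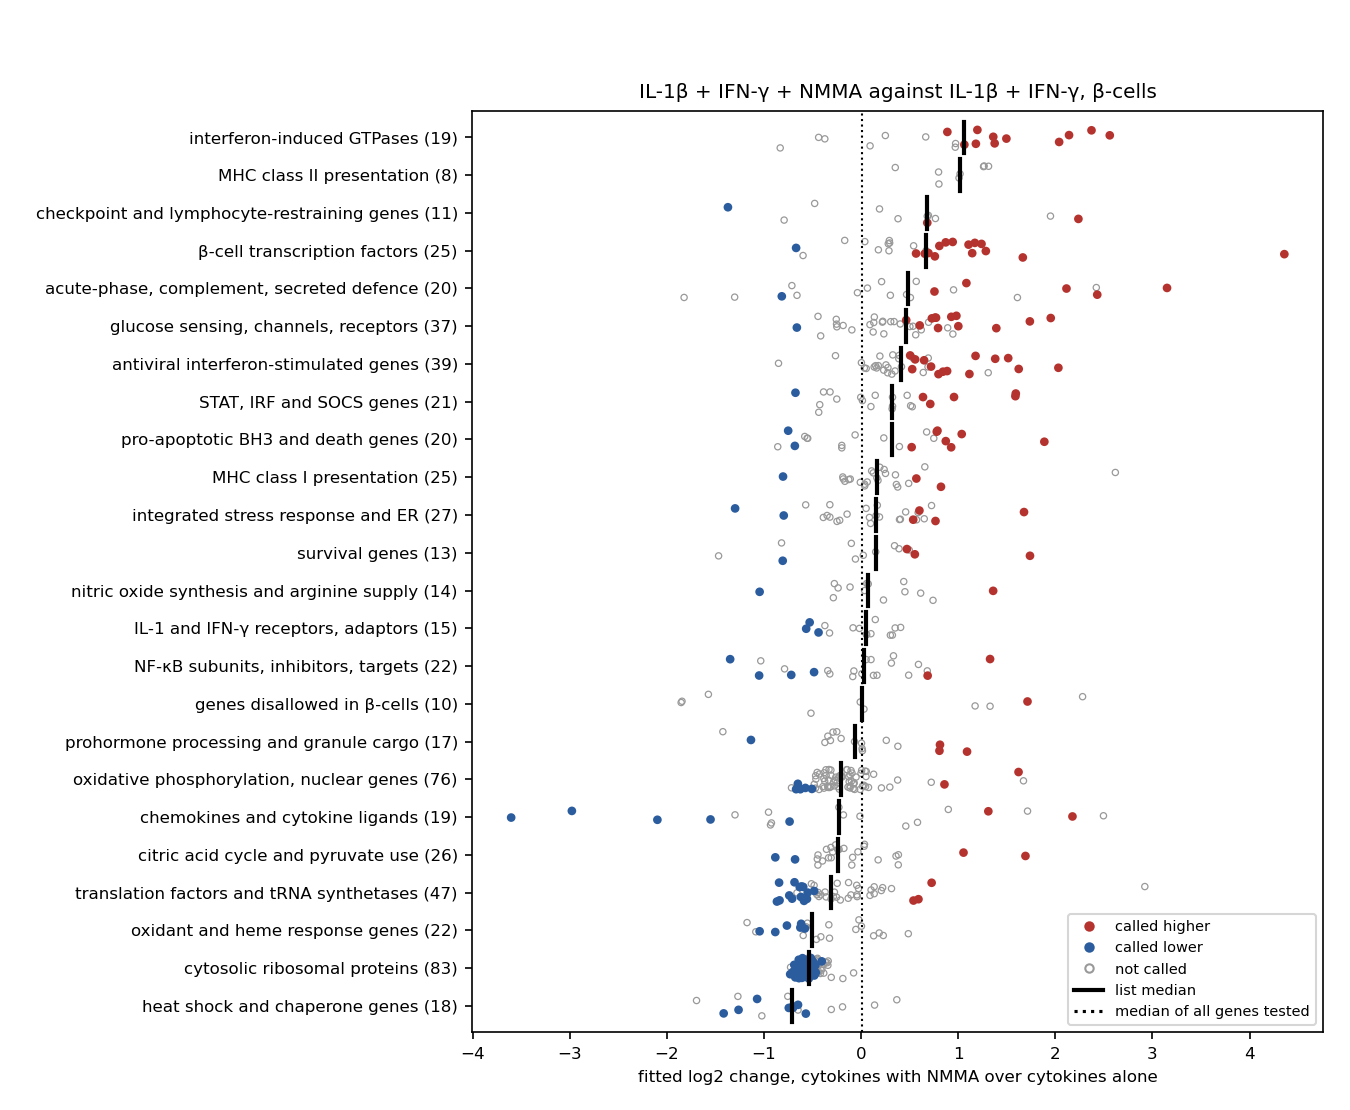
Fitted log2 differences of cytokines with NMMA against the cytokines alone for the same 24 lists, with the same colours and bars. Interferon-induced GTPases (median 1.06) and β-cell transcription factors (0.67) stand on the higher side, and heat shock (−0.71), ribosomal protein (−0.54) and oxidant response genes (−0.51) on the lower side.

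The difference between both cytokine effects, each against its own control without cytokines, was tested as an interaction and was called for 507 of 12701 genes (3.99%), 321 of them positive and 186 negative. It was called for 8 of 25 β-cell transcription factors and 7 of 37 glucose sensing genes. Mafa (interaction 2.16) and Pdx1 (1.55) fell less against NMMA alone than they fell without the inhibitor against untreated, with NMMA alone at 289 and 241 CPM of Mafa against 605 and 464 CPM untreated as the baselines, and Iigp1 (3.18), Socs1 (2.83) and Steap4 (3.46) rose more. The count rested on single libraries, with 20 calls without the NMMA library of replicate 2, 24 without untreated replicate 1, 28 without the NMMA library of replicate 1 and 37 without the cytokines library of replicate 1, and 3334 with the replicate block.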

How the data were processed

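UMI counts were deposited by the authors as a filtered 10x gene by cell matrix for each of 8 libraries (2 replicates of 4 groups), made with Cell Ranger on mm10. The matrix headers name version 3.0.0 or 6.0.0, by replicate, and 30406 gene identifiers were shared by both. β-cells were selected by the limits given above, and their counts were summed per library. Genes were filtered by filterByExpr, which left 12701, scaled by TMM and tested in 1 fit of 8 libraries with edgeR 4.0.16 (R 4.3.3, quasi-likelihood F-test, Benjamini-Hochberg threshold 0.05). CPM are TMM-normalised, and an SE is the log2 change divided by the root of F. On simulated data with 195 genes changed 2-fold in cytokines with NMMA against untreated, 32.3% were recovered, and 85.5% of 200 changed 4-fold (12489 and 12493 genes in the fits). Of the calls in these simulations 11.3% and 9.04% were false, above the nominal 5%. Same-numbered libraries came from 1 pool of islets, had the same Cell Ranger version and deviated together (r of deviations 0.475 to 0.703 over 6 pairs of groups), so a replicate block was run as an alternative. Pool and version cannot be told apart. Other alternatives were DESeq2 1.42.0, other scalings, no filter on low counts, other cell limits, removal of marked doublets (200 cells, 1.84%, left in otherwise) and leaving out each library. Promoter windows were matched by symbol for 9763 of 12701 genes (76.9%), under 80%, so no share over called genes is given.

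Genes were named by rule: the 12 largest increases and decreases with the same sign in both replicates and at least 20 CPM in the higher group, up to 6 members of each list with the smallest adjusted p and the 3 most abundant, called members against the list's majority where 5 or fewer, the 6 smallest adjusted p against cytokines and in the interaction, and the genes of the share and promoter analyses. C1qa, Lyz2, C1qb and C1qc were named in addition, after their values were seen, as macrophage markers. The members and lists were chosen with earlier results of these data known. Results that need items withheld for evaluation are not reported here.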

Additional observations from a re-analysis of the deposited data

Results flagged for a closer look

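The cytokine effect with NMMA (against NMMA alone) and the cytokine effect without it (against untreated) differed by an interaction test for 507 genes, and each value below is the log2 difference of these effects for a named gene with a called interaction.

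The difference was positive for Steap4 (3.46), Iigp1 (3.18), Socs1 (2.83), Plet1 (2.42), Ifi44 (2.33), Tnfsf10 (1.69), Ier3 (1.53), Gbp7 (1.09) and Parp9 (1.08), all called higher with cytokines and NMMA than untreated. It was also positive for the β-cell transcription factors Mafa (2.16), Pdx1 (1.55), Pax6 (1.01) and Nkx2-2 (0.88), for G6pc2 (1.73) and for Rab3a (0.80). Further positive values were those of Pde10a (2.45), Hist1h1c (2.28), Scd2 (1.95), Nipal1 (1.91), Ier2 (1.90), Fh1 (1.57), Heg1 (1.55) and Bad (0.76).

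Negative values were found for Cd40 (−2.52), Slc20a1 (−1.94), Hsp90aa1 (−1.61), Defb1 (−1.55), Hspe1 (−1.33), Ppp1r15a (−0.99) and Ripk1 (−0.91). Groups of 2 libraries are too small for a check of single outlying libraries.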

How the results depend on the processing

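With the replicate block, which takes up islet pool and Cell Ranger version together, called genes numbered 5020 against untreated, 4182 against NMMA alone, 4985 against cytokines and 3334 for the interaction. With 1 library left out they ran from 1260 to 2837 against untreated, from 1002 to 2152 against NMMA alone, from 508 to 2108 against cytokines and from 20 to 466 for the interaction. Against cytokines, fitting only the libraries compared gave 1609. For the interaction, total UMI scaling gave 907 (830 positive, 77 negative) and no filter on low counts gave 1462. G6pc2 against untreated was 0.13 and ran from −0.034 to 0.29 with 1 library left out, turning negative without the cytokines and NMMA library of replicate 2; it was not called in the fit of 8 libraries. The cause of these shifts was not tested. The other alternatives left each of the 4 totals within 1.5 times. In the simulation, where 195 genes were changed 2-fold, 32.3% were recovered. In the data 2843 genes were called against untreated, so that share need not hold for them. With 2 replicates, a gene that was not called is not shown to be unchanged, and share intervals cover counting error only.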
